A study of Homo sapiens with 6 samples.

Results

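ATF4 is the transcription factor at the centre of the integrated stress response, and 10 gene names were taken to follow its mRNA and those of its best known targets: ATF4, ATF3, DDIT3, PPP1R15A, ASNS, TRIB3, SESN2, CHAC1, VLDLR and IFRD1. Of these names, 9 matched a row among the 7682 genes of the deposited half-life table by symbol, and SESN2 is not analysed here. All 9 passed an expression minimum, a mean of at least 5 for total RNA in siRNA and in mock columns, as did 6064 genes in all, and every test below was run on those 6064. The cells were HEK293, an established human embryonic kidney line, transfected with MOV10 siRNA or mock transfected. MOV10 is an RNA helicase, and the series asked how its loss changes the lifetime of mRNAs. Both groups received the nucleoside 4-thiouridine (4sU) at 700 µM for 60 min, which marks RNA made in that time. Poly(A)+ libraries were made from total RNA, from the labelled RNA and from the unlabelled flow-through. GEO lists 6 samples, 1 per fraction and condition, while the table header gives replicate 1 and replicate 2 for each, so there were 2 columns per group. The labels do not say that they were separate cultures, and p-values therefore measure only the spread between columns, which may be technical.

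When cells lack amino acids, meet unfolded proteins in the endoplasmic reticulum, are infected or lack haem, kinases phosphorylate the initiation factor eIF2alpha and most translation slows. Translation of ATF4 then increases, because its mRNA carries short upstream reading frames that otherwise keep ribosomes from its start codon. ATF4 activates genes of amino acid supply and of stress signalling, and one of them, PPP1R15A, directs a phosphatase to eIF2alpha and so closes the loop. Several of these mRNAs, ATF4, ATF3 and DDIT3 among them, are textbook substrates of nonsense-mediated decay, the pathway of the helicase UPF1, which the title of the series names beside MOV10.

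The response is read from the genome through a short element bound by ATF4 with a C/EBP partner, TGATGNAA. It was searched on both strands of RefSeq promoter windows (GRCh38.p14), from 250 bases before to 50 bases after each annotated start, and is shown here because it marks which of these promoters carry the letters of that element. Of the 9 genes, 4 had a match in at least 1 of their windows, and 2.73% of the 4622 genes past the expression minimum with a window did. Each site is printed on the strand of its gene with the element in capitals.
ASNS, chr7:97872460-97872485, minus strand, 68 bases before the start: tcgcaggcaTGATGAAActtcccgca
ATF3, chr1:212565207-212565232, plus strand, 191 bases before an annotated start: aggtcaggaTGATGGAAggctgtcat
CHAC1, chr15:40953253-40953278, plus strand, 209 bases before the start, element on the opposite strand: cccctgccgTTGCATCActcctgcca
IFRD1, chr7:112452067-112452092, plus strand, 18 bases after 1 of its 4 annotated starts: tctccatgtTGATGAAAttcattctt
The absence of a match in the other 5 genes says only that these letters are not in these windows.

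The AU-rich heptamer TATTTAT, a common letter pattern in unstable mRNAs, was searched on the transcript strand of the 3' UTR (GENCODE v29, principal isoform), since short half-lives set most of these genes apart from the rest of the table. It occurred in 5 of the 9 genes, and in 32.4% of 5633 genes. The first site of each is given with the heptamer in capitals.
ATF3: aaatattactTATTTATcctagtattc
CHAC1: cttgaaacttTATTTATtgcaccatgt
DDIT3: attgtacattTATTTATtactgtccct
IFRD1: ggtcataattTATTTATgaagacagca
PPP1R15A: atttattaacTATTTATtttttctaag
The heptamer was not found in ATF4, ASNS, TRIB3 or VLDLR. These 3' UTRs ran from 81 bases in ATF4 and 84 in PPP1R15A to 6185 in VLDLR. Another heptamer, TACTGCA, was found in 0 of the 9 and in 10.1% of the 5633 genes. In the 5' leader ATF4 had 7 upstream ATG triplets, of which 2 opened frames that overlapped the coding start, and ATF3 and DDIT3 had 1 such frame each. TRIB3 had 3 upstream ATG triplets. ASNS, DDIT3 and PPP1R15A had 2 each, ATF3 and IFRD1 1 each, and CHAC1 and VLDLR 0. An upstream ATG was present in 52.4% of 5613 genes, and a frame that overlapped the start in 16.6%.

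The values are a normalised signal without a named unit, none lower than 1, library depth is unknown, and levels are compared here between columns, not between genes. In total RNA the targeted gene, MOV10, was at 3.53 and 3.64 in siRNA cells, against 13.1 and 14.6 in mock cells, too low after siRNA to be tested. UPF1 had a total RNA change of 0.16 (limma test, Benjamini-Hochberg adjusted p = 0.165). Of 8 genes listed as typical of HEK293 cells 4 had a row, with a summed total RNA of 59.4 to 61.7 in siRNA cells and 56.9 to 62.3 in mock cells. Markers listed for blood, hepatocytes, fibroblasts, keratinocytes and endothelium had 0 rows. The neuronal marker SYP was at 30.8 to 33.5 in siRNA cells and 20.7 to 22.2 in mock cells, and its part in the results was not tested. In such bulk RNA, a change in every cell and a change in some of the cells cannot be told apart. All log2 changes below are siRNA over mock, on the scale of log2(value + 1), relative to the median gene of each column. Before that centring the median gene stood at -0.01 in total RNA, at 0.14 in the labelled fraction, at 0.02 in the flow-through and at 0.20 in half-life. Folds are plain ratios of group means.

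**Figure D1:**
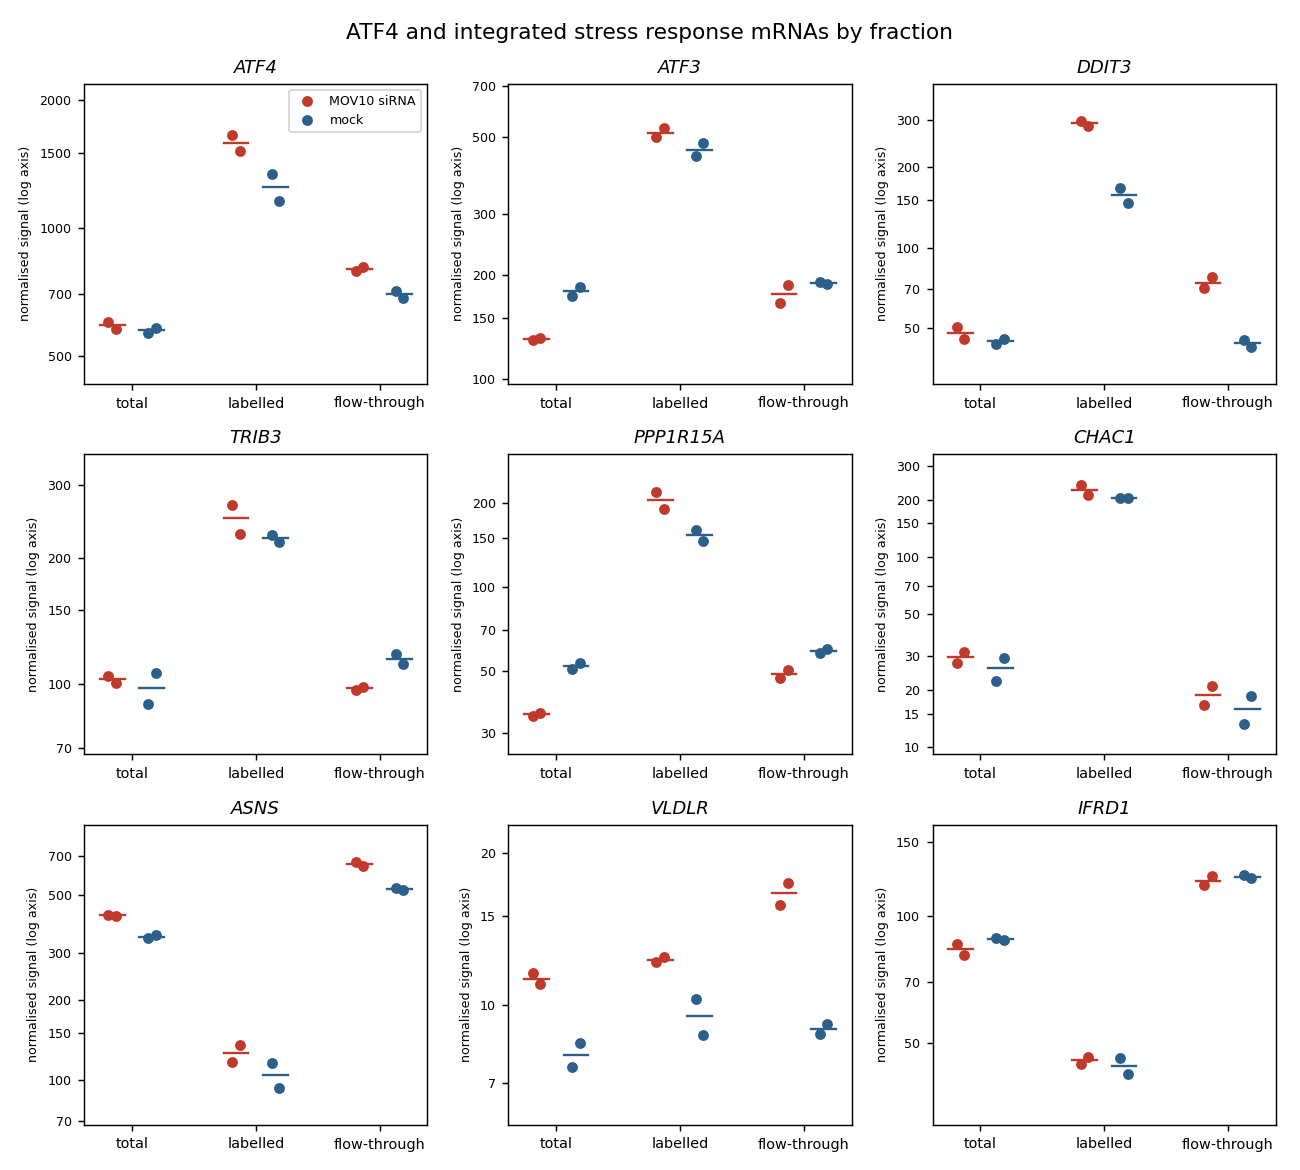
Normalised signal of each gene in total, labelled and flow-through RNA on a log axis, one panel per gene, with 1 point per column, MOV10 siRNA on the left and mock on the right of each pair. In DDIT3 the siRNA points lie well above the mock points in labelled and flow-through RNA, while in total RNA the nearest points of the groups are level, and in PPP1R15A they lie above in labelled RNA and below in total and flow-through RNA.

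Taken as a group the 9 genes did not move one way. In total RNA 2 were called higher (ASNS and VLDLR) and 2 lower (ATF3 and PPP1R15A), where 27.2% of all genes tested were called (12.9% higher and 14.3% lower). In labelled RNA DDIT3 alone was called, higher, where 21.4% of all genes were called (9.88% higher and 11.5% lower). In flow-through RNA ATF4, DDIT3, ASNS and VLDLR were called higher and PPP1R15A and TRIB3 lower, 6 of 9, where 58.6% of all genes were called (31.7% higher and 26.8% lower), so that this share is close to the background. The median change of the 9 was 0.09 in total RNA (0.01 over all genes), 0.14 in the labelled fraction (0.00 over all genes) and 0.21 in the flow-through (0.03 over all genes). Over all genes 599 rose and 700 fell in labelled RNA, and 1641 rose and 333 fell without centring. The calls named here in total, labelled and flow-through RNA all held whichever of the 4 columns was left out.

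**Figure D2:**
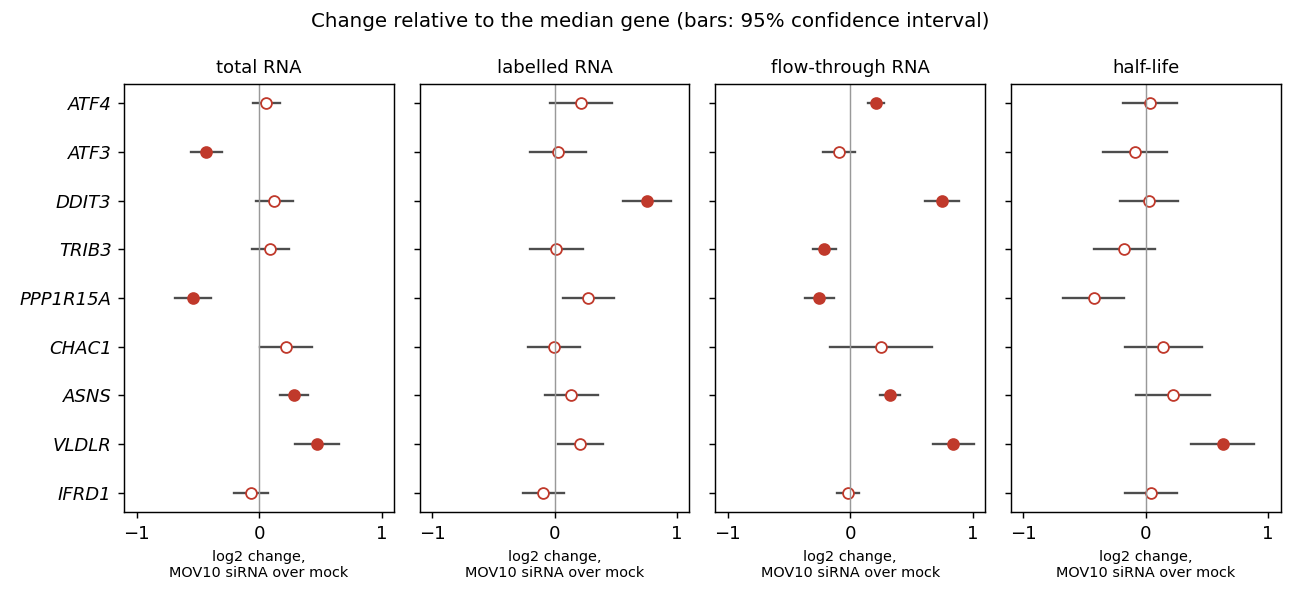
Log2 change, MOV10 siRNA over mock, with its 95% confidence interval for each gene in total, labelled and flow-through RNA and in half-life, with filled points where the adjusted p lay under 0.05. The points spread to both sides of 0 in total and flow-through RNA, and VLDLR is the filled point in half-life.

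ATF4 itself, the factor that the other genes answer to, did not pass the test in total RNA. It was at 602 and 579 in siRNA cells, against 566 and 581 in mock cells, and the groups overlapped (change 0.06, SE 0.05, limma test, Benjamini-Hochberg adjusted p = 0.436; 95% interval -0.05 to 0.17). Its labelled RNA was at 1653 and 1517 in siRNA cells and at 1338 and 1153 in mock cells. Both siRNA columns lay above both mock columns there, but the change of 0.21 (SE 0.12) did not pass the test (adjusted p = 0.218). The labelled value depended on the columns and on the scaling. Without siRNA replicate 2 the change was 0.29, and without centring 0.35 (limma test, adjusted p = 0.0467). It was 0.14 without siRNA replicate 1 and 0.15 without mock replicate 2. Quantile normalisation gave 0. That method sets equal values for a gene with the same rank in each column, so this 0 does not measure a change. In flow-through RNA ATF4 was at 790 and 808 in siRNA cells, against 709 and 684 in mock cells, 1.15-fold higher (change 0.21, SE 0.03, adjusted p = 0.00139). The authors' half-lives of ATF4 were 160 and 228 min in siRNA cells and 153 and 174 min in mock cells, and overlapped. Reads of 4 pseudogenes that carry the ATF4 name, ATF4P1 to ATF4P4, were not separated from it here.

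DDIT3, which encodes the transcription factor CHOP that acts with ATF4 in prolonged stress, had the largest labelled increase of the 9 genes. Its labelled RNA was at 297 and 284 in siRNA cells, against 166 and 146 in mock cells, 1.86-fold higher (change 0.75, SE 0.09, limma test, Benjamini-Hochberg adjusted p = 0.0005). Of all genes tested, 99.8% had a lower labelled change. The flow-through RNA of DDIT3 was at 70.5 and 77.7 in siRNA cells, against 45.4 and 42.8 in mock cells, 1.68-fold higher (change 0.75, SE 0.06, adjusted p = 0.000301). Its total RNA, from which both fractions were taken, was at 50.8 and 45.7 in siRNA cells and at 43.8 and 45.7 in mock cells (change 0.12, SE 0.07, adjusted p = 0.215). The siRNA columns stood clear of the mock columns in both fractions, while in total RNA the lower siRNA column lay level with the higher mock column. The change in flow-through minus that in labelled RNA was -0.00 (95% interval -0.21 to 0.20). The half-lives of DDIT3 mRNA were 78.3 and 108 min in siRNA cells and 76.0 and 81.8 min in mock cells, with a change of 0.03 (adjusted p = 0.896).

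DDIT3 shares exon sequence with a neighbour on the opposite strand, the methionyl-tRNA synthetase gene MARS, over 355 of its 1307 annotated exon bases (27.2%, GENCODE v29). The library kit named in the labels does not keep strand, so reads from the shared bases cannot be assigned. MARS labelled RNA was at 68.8 and 67.2 in siRNA cells and at 59.8 and 53.4 in mock cells (change 0.13, adjusted p = 0.284). MARS flow-through RNA was at 228 and 215 in siRNA cells and at 248 and 250 in mock cells, a change of -0.15 (adjusted p = 0.0216). Further bases are shared with MBD6 on the opposite strand (58) and with AC022506.1 on the same strand (105). The part of shared reads in the DDIT3 values was not tested.

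ATF3, a stress-induced repressor of the same leucine zipper class, fell in total RNA. It was at 130 and 132 in siRNA cells, against 174 and 184 in mock cells, 1.37-fold lower (change -0.43, SE 0.06, limma test, Benjamini-Hochberg adjusted p = 0.000141). Of all genes, 5.47% had a lower change. In labelled RNA it was at 498 and 531 in siRNA cells and at 439 and 479 in mock cells, with both siRNA columns above the mock columns before centring and a change of 0.03 after it (adjusted p = 0.873). In flow-through RNA it was at 166 and 187 in siRNA cells and at 191 and 188 in mock cells (change -0.09, adjusted p = 0.183). That change was -0.17 without siRNA replicate 2 (adjusted p = 0.0206) and -0.02 without siRNA replicate 1 (adjusted p = 0.749). Half-lives of 129 and 177 min in siRNA cells and of 145 and 136 min in mock cells overlapped.

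TRIB3, a pseudokinase induced by ATF4 and DDIT3 that holds both in check, was lower in flow-through RNA. It was there at 96.8 and 98.3 in siRNA cells, against 118 and 111 in mock cells, 1.17-fold lower (change -0.21, SE 0.04, limma test, Benjamini-Hochberg adjusted p = 0.00501). Its total RNA was at 104 and 100 in siRNA cells and at 89.4 and 106 in mock cells, and its labelled RNA at 269 and 229 in siRNA cells and at 228 and 219 in mock cells. The total columns overlapped, and neither change passed the test (0.09 and 0.02). The difference between its flow-through and labelled changes was -0.23 (adjusted p = 0.209), and -0.38 (adjusted p = 0.0487) without centring.

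PPP1R15A encodes GADD34, the subunit that brings protein phosphatase 1 to eIF2alpha, and its fractions moved apart. Total RNA was at 34.5 and 35.5 in siRNA cells, against 50.7 and 53.4 in mock cells, 1.49-fold lower (change -0.54, SE 0.07, limma test, Benjamini-Hochberg adjusted p = 7.25e-05). Flow-through RNA was at 47.2 and 50.5 in siRNA cells, against 58.0 and 59.9 in mock cells, 1.21-fold lower (change -0.25, SE 0.05, adjusted p = 0.00685). Labelled RNA was at 218 and 191 in siRNA cells, against 161 and 146 in mock cells, and the columns did not overlap. The labelled change of 0.28 (SE 0.09) did not pass the test (adjusted p = 0.0584), but did so without centring (adjusted p = 0.00901), with a pseudocount of 5 (adjusted p = 0.0394), with quantile normalisation (adjusted p = 0.0136) and without siRNA replicate 2 (0.38, adjusted p = 0.00801). Without siRNA replicate 1 it was 0.17 (adjusted p = 0.215). The flow-through change lay below the labelled change (difference -0.53, SE 0.10, adjusted p = 0.0142), where 10.4% of all genes were called in this comparison (4.47% higher and 5.92% lower, and with counts of 271 and 359, against 71 and 957 without centring). That call was lost without siRNA replicate 1 (adjusted p = 0.0872), mock replicate 1 (0.0699) or mock replicate 2 (0.116). The half-lives of PPP1R15A were 82.2 and 123 min in siRNA cells and 110 and 126 min in mock cells (change -0.43, SE 0.10, adjusted p = 0.0641).

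CHAC1 degrades glutathione and is among the most sharply induced ATF4 targets in other cells. Its total RNA was at 27.8 and 31.5 in siRNA cells and at 22.3 and 29.5 in mock cells, and its flow-through RNA at 16.8 and 20.9 in siRNA cells and at 13.2 and 18.7 in mock cells. Both ranges overlapped, and the changes of 0.22 and 0.25 did not pass the test (limma test, Benjamini-Hochberg adjusted p = 0.122 and 0.245). Without mock replicate 2 they were 0.37 and 0.49 (adjusted p = 0.0411 and 0.0277), and without mock replicate 1 they were 0.06 and 0.01 (adjusted p = 0.632 and 0.954). Without siRNA replicate 2 they were 0.12 and 0.11 (adjusted p = 0.574 and 0.662). Labelled CHAC1 RNA was at 240 and 210 in siRNA cells, against 204 and 204 in mock cells, with a change of -0.00 after centring (adjusted p = 0.991).

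The remaining genes act outside the core of the response. ASNS, which makes asparagine from aspartate, was at 419 and 416 in total RNA of siRNA cells, against 342 and 353 in mock cells, 1.20-fold higher (change 0.28, SE 0.05, limma test, Benjamini-Hochberg adjusted p = 0.00173). Its flow-through RNA was at 666 and 640 in siRNA cells, against 531 and 520 in mock cells, 1.24-fold higher (change 0.33, SE 0.03, adjusted p = 0.000686). Labelled ASNS RNA was at 117 and 135 in siRNA cells and at 116 and 93.4 in mock cells (change 0.14, adjusted p = 0.358). The difference between its flow-through and labelled changes, 0.19, did not pass the test (adjusted p = 0.323). GENCODE v29 holds 4 pseudogenes under the ASNS name and a noncoding transcript on the same strand, AC079781.5, that shares 1985 of the 4455 annotated exon bases of ASNS (44.6%), and reads of these were not separated.

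VLDLR, the receptor for very low density lipoprotein, had the largest increase of the 9 in flow-through RNA and the only called change in half-life. Total RNA was at 11.57 and 10.98 in siRNA cells, against 7.54 and 8.39 in mock cells, 1.42-fold higher (change 0.47, SE 0.08, limma test, Benjamini-Hochberg adjusted p = 0.00102). Flow-through RNA was at 15.8 and 17.5 in siRNA cells, against 8.74 and 9.15 in mock cells, 1.86-fold higher (change 0.84, SE 0.07, adjusted p = 0.000388). Labelled RNA was at 12.2 and 12.4 in siRNA cells and at 10.3 and 8.72 in mock cells (change 0.21, SE 0.08, adjusted p = 0.0971, and 0.0101 without centring). All 3 fractions were higher in both siRNA columns than in both mock columns, and the flow-through change exceeded the labelled one by 0.63 (SE 0.10, adjusted p = 0.00615; 0.0834 without mock replicate 1). The half-lives of VLDLR were 500 and 743 min in siRNA cells, against 307 and 386 min in mock cells (change 0.63, SE 0.11, adjusted p = 0.0258), where 6.15% of all genes were called (1.88% higher and 4.27% lower). This call was lost without siRNA replicate 2 (adjusted p = 0.0648), mock replicate 1 (0.132) or mock replicate 2 (0.0534), and without centring (0.82, adjusted p = 0.723). Half-lives of VLDLR recomputed from its fractions were 283 and 286 min in siRNA cells and 218 and 278 min in mock cells. Before centring these were 1.15-fold higher after siRNA, where the authors' half-lives were 1.79-fold higher, so the size in minutes depends on the scaling. VLDLR lay close to the expression minimum and is not tested under the stricter minimum of 20. An antisense transcript, VLDLR-AS1, shares 738 of its annotated exon bases (7.9%), and unstranded reads from it cannot be told apart.

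IFRD1, a transcriptional coregulator whose mRNA carries an upstream reading frame, was called in none of the fractions and not in half-life. Its total RNA was at 86.0 and 80.8 in siRNA cells and at 89.0 and 88.0 in mock cells (change -0.07, 95% interval -0.21 to 0.08, limma test, Benjamini-Hochberg adjusted p = 0.502). Labelled RNA was at 44.5 and 46.4 in siRNA cells and at 46.0 and 42.2 in mock cells, and flow-through RNA at 118 and 124 in siRNA cells and at 125 and 123 in mock cells. Both overlapped, with changes of -0.09 and -0.02.

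The 9 mRNAs spanned much of the range of stability in these cells. CHAC1 had the shortest half-life, 34.8 and 52.1 min in siRNA cells and 30.1 and 37.5 min in mock cells, and 10 of the 6064 genes were shorter in siRNA cells and 2 in mock cells. It was followed by DDIT3, PPP1R15A, ATF3, TRIB3 and ATF4. In siRNA cells 1.44% of genes had shorter half-lives than DDIT3 and 6.33% than ATF4, and in mock cells 1.17% and 5.61%. These 6 lay far below the median gene, which stood at 764 and 1030 min in siRNA cells and 742 and 810 min in mock cells. VLDLR was shorter-lived than the median gene in both conditions, with 32.7% of genes below it in siRNA cells and 17.3% in mock cells. IFRD1 was longer-lived, at 1019 and 1431 min in siRNA cells and 968 and 1077 min in mock cells. ASNS, the metabolic enzyme, was the most stable of the 9, at 1986 and 2256 min in siRNA cells and 1420 and 1771 min in mock cells, with 91.4% and 87.1% of genes below it. The siRNA columns of ASNS lay above the mock columns, and the change of 0.22 (SE 0.13) did not pass the test (limma test, adjusted p = 0.325). Half-lives of ASNS recomputed from its fractions overlapped, at 1168 and 916 min in siRNA cells and 1088 and 1388 min in mock cells. In siRNA cells the columns of DDIT3 and PPP1R15A overlapped, as did those of ATF3, TRIB3 and ATF4, and in mock cells those of TRIB3 and ATF4 did, so the order within those runs lies within the spread. The heptamer TATTTAT printed above was present in 4 of the 6 short-lived mRNAs and in 1 of the other 3, the long-lived IFRD1.

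**Figure D3:**
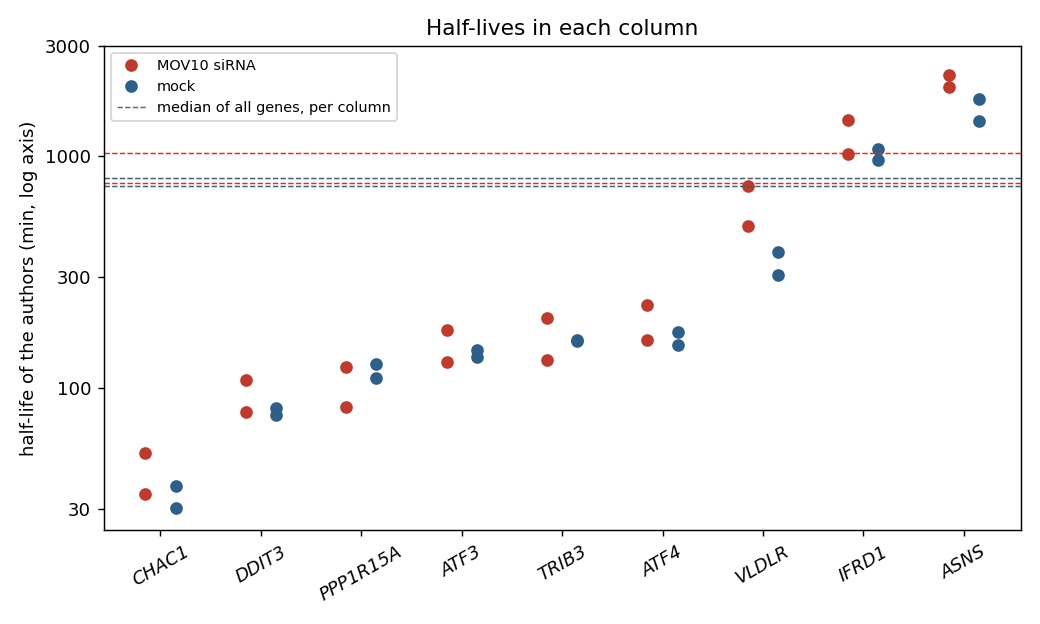
The authors' half-lives of the 9 mRNAs in min on a log axis, ordered from short to long, with 1 point per column and MOV10 siRNA left of mock. Of the 9 genes, 6 lie well below the all-gene medians and ASNS lies above them, and the siRNA points of VLDLR and of ASNS lie above their mock points.

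The ratio of labelled to flow-through RNA, from values that also enter the half-lives, gave a similar order. CHAC1 had ratios of 14.3 and 10.1 in siRNA cells and 15.4 and 10.95 in mock cells, where the median gene had 0.459 and 0.460 in siRNA cells and 0.419 and 0.401 in mock cells. PPP1R15A stood at 4.63 and 3.77 in siRNA cells, against 2.77 and 2.43 in mock cells, and DDIT3 at 4.21 and 3.66 in siRNA cells and 3.66 and 3.42 in mock cells. ATF3 was at 3.003 and 2.85 in siRNA cells, against 2.29 and 2.55 in mock cells. TRIB3 was at 2.78 and 2.33 in siRNA cells, against 1.94 and 1.97 in mock cells. Both siRNA columns lay above both mock columns in PPP1R15A, ATF3, TRIB3 and IFRD1, as they also did for the median gene, while the columns of CHAC1, DDIT3, ATF4 and ASNS overlapped. Relative to the median gene the flow-through minus labelled difference of ATF3 was -0.12 and did not pass the test (adjusted p = 0.52). VLDLR had ratios of 0.768 and 0.711 in siRNA cells, against 1.17 and 0.954 in mock cells, a move the other way. ASNS was at 0.176 and 0.211 in siRNA cells and 0.218 and 0.180 in mock cells.

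Total RNA is the sum of its labelled and unlabelled parts, and DDIT3 raised the question of how well each gene's total matched its fractions. For each column, total RNA was fitted over all genes as a weighted sum of the labelled and flow-through values. This comparison was added after the values were seen. The weight of labelled RNA was 0.141 and 0.146 in siRNA cells and 0.120 and 0.123 in mock cells. That of flow-through RNA was 0.682 and 0.664 in siRNA cells and 0.670 and 0.724 in mock cells. The part of these weights in the changes below was not tested. Given its fractions, DDIT3 was fitted at 89.8 and 93.2 in siRNA cells and at 50.4 and 48.9 in mock cells, beside the measured 50.8 and 45.7 in siRNA cells and 43.8 and 45.7 in mock cells. On the log2 scale its total stood to the fitted value at -0.82 and -1.03 in siRNA cells, against -0.20 and -0.10 in mock cells. The change was -0.78 (SE 0.12, limma test, Benjamini-Hochberg adjusted p = 0.0372), and 10 genes of 6064 had a lower one. PPP1R15A lay at -0.87 and -0.79 in siRNA cells, against -0.20 and -0.20 in mock cells (change -0.63, SE 0.10, adjusted p = 0.0372). ATF3 lay at -0.49 and -0.61 in siRNA cells, against -0.05 and -0.08 in mock cells (change -0.49, SE 0.08, adjusted p = 0.0374). These 3 of the 9 genes were called, all lower, where 6.33% of all genes were called (2.46% higher and 3.88% lower). ATF4 (change -0.23, adjusted p = 0.097) and VLDLR (-0.31, adjusted p = 0.0737) did not pass, and TRIB3 was at 0.15 and CHAC1 at -0.12. The 405 genes with mock half-lives under 180 min had a median change of -0.06, with quartiles of -0.22 and 0.12. Of these 405, 35 were called lower, a larger share than the 235 of all 6064 genes (3.88%). Lower calls were therefore more frequent among short-lived genes as a class, not in these 3 genes alone. Those called higher among the 405 were not counted, but they include CEBPB and JUND, described under the other observations. The SD of the same quantity over all genes was 0.267 and 0.281 in siRNA cells and 0.205 and 0.162 in mock cells. The 3 calls were lost without mock replicate 1 (adjusted p = 0.163 for each), without mock replicate 2 (0.0847 to 0.0879) and with no expression minimum (0.0886). A half-life change that did not pass the test does not show equal stability.

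**Figure D4:**
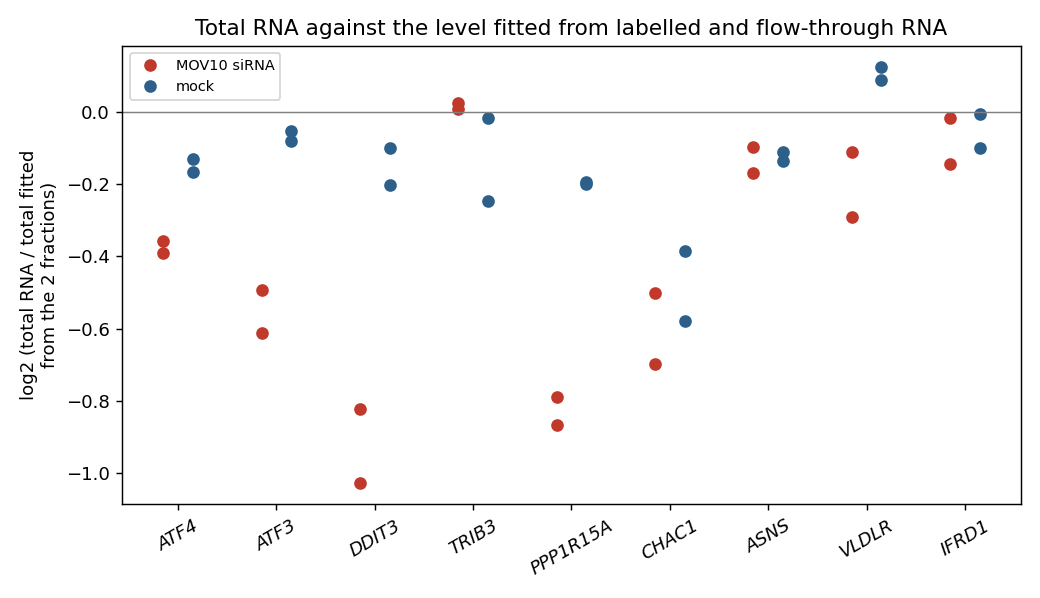
Log2 ratio of measured total RNA to the total fitted from labelled and flow-through RNA, with 1 point per column and MOV10 siRNA left of mock for each gene. The siRNA points of DDIT3, PPP1R15A and ATF3 lie lower than their mock points, between -1.03 and -0.49, while their mock points lie between -0.20 and -0.05.

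Upstream of ATF4, all 4 kinases of eIF2alpha had a row, but EIF2AK3 did not pass the expression minimum and was not tested. Of the 3 tested, 0 were called in total RNA, where 27.2% of all genes were. In labelled RNA 0 of 3 were called (21.4% of all genes), and in half-life 0 of 3 (6.15% of all genes). In flow-through RNA, where 58.6% of all genes were called, 1 was, EIF2AK1, at 0.27 (limma test, adjusted p = 0.00255). EIF2AK1, the kinase that senses haem, had the largest total increase, 0.12 (limma test, Benjamini-Hochberg adjusted p = 0.238), and EIF2AK2, the kinase that senses double-stranded RNA, the largest decrease, -0.13 (adjusted p = 0.391). EIF2AK4, the amino acid sensor GCN2, had a half-life change of -0.29 (adjusted p = 0.124). Of 10 genes for eIF2, its exchange factor eIF2B and its phosphatase, 2 rose in total RNA and 0 fell, and 5 rose and 0 fell in flow-through RNA. Of all genes, 12.9% rose and 14.3% fell in total RNA, and 31.7% rose and 26.8% fell in flow-through RNA. PPP1R15B, the constitutive relative of PPP1R15A, had a total change of 0.23 (adjusted p = 0.0454), a call that held in 1 of the 4 settings with a column left out. EIF2B2, a subunit of eIF2B, was at -0.22 (adjusted p = 0.0666). In half-life the extremes were eIF2alpha itself, EIF2S1, at 0.32 (adjusted p = 0.101) and eIF2beta, EIF2S2, at -0.12 (adjusted p = 0.454).

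Among 9 dimer partners of ATF4 and other leucine zipper factors, 2 rose and 4 fell in total RNA (12.9% and 14.3% of all genes), 1 rose and 3 fell in labelled RNA (9.88% and 11.5%), 3 rose and 5 fell in flow-through RNA (31.7% and 26.8%), and 0 half-lives rose and 2 fell (1.88% and 4.27%). ATF5, a relative of ATF4 with similar upstream frames, rose by 0.35 (adjusted p = 0.00315, lost without siRNA replicate 1), and ATF7 had a total change of -0.68 (adjusted p = 0.000136). JUN, the immediate early partner of FOS, had half-lives of 54.2 and 83.7 min in siRNA cells, against 97.5 and 90.5 min in mock cells (change -0.67, limma test, Benjamini-Hochberg adjusted p = 0.034). BACH1, a repressor of antioxidant genes, had half-lives of 153 and 183 min in siRNA cells, against 189 and 223 min in mock cells (change -0.49, adjusted p = 0.0435). The JUN call held in 1 of the 4 settings with a column left out, without siRNA replicate 2, and the BACH1 call in 0. The half-life changes of ATF7 (-0.79, adjusted p = 0.0674) and of CEBPG (0.15, adjusted p = 0.315), a C/EBP partner of ATF4, did not pass.

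Of 10 synthesis genes for serine, glycine, proline and related amino acids, 2 rose and 1 fell in total RNA (12.9% and 14.3% of all genes). In flow-through RNA 5 rose and 1 fell (31.7% and 26.8%), and 0 were called in labelled RNA or half-life (21.4% and 6.15%). CTH, which makes cysteine from cystathionine, rose by 0.41 (limma test, Benjamini-Hochberg adjusted p = 0.000503), and GPT2, a mitochondrial alanine transaminase, fell by 0.32 (adjusted p = 0.00338, lost without siRNA replicate 1). Their half-life changes had the same signs, 0.36 for CTH (adjusted p = 0.0898) and -0.39 for GPT2 (adjusted p = 0.0692), and did not pass. Of 10 amino acid transporters, 2 rose and 0 fell in total RNA (12.9% and 14.3% of all genes), and 0 rose and 1 fell in labelled RNA (9.88% and 11.5%). Of the same 10, 1 rose and 5 fell in the flow-through (31.7% and 26.8% of all genes). Counting both directions, 58.6% of all genes were called, a share close to that of the list, while the calls of the list were mostly lower. SLC38A2, the adaptive transporter of small neutral amino acids, rose by 0.34 in total RNA (adjusted p = 0.000829), and its half-life change of 0.37 did not pass (adjusted p = 0.0528). The cationic amino acid transporter SLC7A1 was at -0.16 in total RNA (adjusted p = 0.0716), and the neutral amino acid transporter SLC43A1 at -0.35 in half-life (adjusted p = 0.096).

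Of 20 cytosolic aminoacyl-tRNA synthetases listed, 12 had a row, and those 12 were tested. Of the 12, 3 rose and 1 fell in total RNA, 4 rose and 0 fell in labelled RNA, and 8 rose and 2 fell in flow-through RNA. The shares of all genes called were 27.2% for total RNA (12.9% higher and 14.3% lower) and 21.4% for labelled RNA (9.88% higher and 11.5% lower). For flow-through RNA the share was 58.6% (31.7% higher and 26.8% lower). NARS, which charges asparagine tRNA, rose by 0.36 in total RNA (limma test, Benjamini-Hochberg adjusted p = 0.000934), and MARS fell by 0.24 (adjusted p = 0.00887, lost without either siRNA column). In half-life NARS was at 0.43 (adjusted p = 0.0617) and MARS at -0.25 (adjusted p = 0.167). Of 18 other stress genes listed as ATF4-induced, 4 rose and 1 fell in total RNA. Over all genes 27.2% were called (12.9% higher and 14.3% lower), a share close to that of the list. Whether ATF4 drives these genes in these cells was not tested. In labelled RNA 1 rose and 6 fell (9.88% and 11.5% of all genes), in flow-through RNA 4 rose and 4 fell (31.7% and 26.8%), and in half-life 1 rose and 0 fell (1.88% and 4.27%). XPOT, the tRNA exporter, rose by 0.41 (adjusted p = 0.000288), and NDRG1, a gene induced by stress and hypoxia, fell by 0.43 (adjusted p = 0.000434). MCL1, which protects cells from apoptosis, had half-lives of 197 and 256 min in siRNA cells, against 138 and 148 min in mock cells (change 0.46, adjusted p = 0.0368). The MCL1 call was lost whichever column was left out, with adjusted p between 0.0651 and 0.179. LONP1, a mitochondrial protease, had the lowest half-life change of that list, -0.29 (adjusted p = 0.101). The medians of these lists in total RNA lay between -0.12 and 0.09, beside 0.01 over all genes.

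By the distance between centred profiles over the 12 columns, the genes most like ATF4 were XBP1 (0.212), RAB9A (0.223), ZNF227 (0.267), MRPL17 (0.279) and PUS3 (0.293), where the median gene lay at 3.37. Each profile spans 3 fractions, so this distance also follows the balance of labelled to flow-through RNA, not the siRNA change alone. The half-lives of these 5 genes lay between 147 and 304 min. XBP1 encodes the transcription factor of the IRE1 arm of the unfolded protein response, and its half-lives were 183 and 228 min in siRNA cells and 159 and 189 min in mock cells. Among the other 8 genes TRIB3 lay closest to ATF4 (0.664), followed by ATF3 (1.00), PPP1R15A (1.48), DDIT3 (1.72) and VLDLR (1.94), and ASNS lay farthest (5.13).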

How the data were processed

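Total, 4sU-labelled and flow-through RNA of HEK293 cells was sequenced as poly(A)+ libraries for 100 cycles. Reads were aligned with TopHat2 2.06 to hg18, per the submitters' processing notes. The quantification tool was not given in the sources used here. As deposited, the authors' table has 12 columns of a normalised signal for each gene, with no unit in the header. The other unit is that of 4 half-life columns, which the authors computed by a published method per the labels' protocols. The header does not name it. It was taken as minutes because half-lives recomputed from the fractions over 60 min of labelling had medians of 461 and 431 min in siRNA cells and 575 and 633 min in mock cells, beside 764 and 1030 in siRNA cells and 742 and 810 in mock cells in the authors' columns. The recomputed medians were lower after siRNA and the authors' were not, so a shift of all half-lives between the conditions is not read from either. Log2 values correlated over genes at Pearson 0.980 and 0.969 in siRNA cells and 0.966 and 0.964 in mock cells.

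The 2 columns of a group were taken as replicates, although GEO lists 1 sample for each. Changes were tested with limma 3.58.1 in R 4.3.3 on log2(value + 1), or on log2 half-life, centred on the median gene of each column, with a mean-variance trend and Benjamini-Hochberg adjustment over the 6064 genes with mean total RNA of 5 or more in both conditions, at 0.05, two-sided. An exact permutation test of 2 against 2 columns cannot give a p below 0.333. The flow-through and labelled changes were compared by an interaction term, which treats fractions of the same RNA as independent. Total RNA against its fitted value used weights fitted in each replicate by least absolute log residuals, and was added after seeing the data. The alternatives were other pseudocounts (0.1 and 5), no expression minimum or 20, no centring, quantile normalisation, no trend, recomputed half-lives, a replicate block and leaving out each column. The text names the 9 genes, MOV10, UPF1, the extremes of 7 lists in total RNA and half-life, list genes called in half-life, and the 5 genes nearest to ATF4. MARS is also named by its overlap with DDIT3. List counts cover only genes with a row that passed the expression minimum. Tested were 3 of 4 kinases, 10 of 12 genes of eIF2, eIF2B and the phosphatase, and 9 of 13 leucine zipper factors. Of the amino acid lists, 10 of 12 synthesis genes, 10 of 12 transporters and 12 of 20 synthetases were tested. Of the other stress genes listed as ATF4-induced, 18 of 24 were. The genes and lists were chosen with earlier results of these data known.

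Promoter windows are from RefSeq (GRCh38.p14) and UTRs and overlaps from GENCODE v29, matched by symbol. All 9 genes matched in both. These builds differ from hg18.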

Additional observations from a re-analysis of the deposited data

Results flagged for a closer look

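In 2 of the 9 genes the siRNA change differed between flow-through and labelled RNA by the test of that difference. Of all genes tested, 10.4% were called in this comparison (4.47% higher and 5.92% lower). Without centring 71 genes were called higher and 957 lower. PPP1R15A was lower in flow-through RNA relative to labelled RNA (difference -0.53, SE 0.10, limma test, Benjamini-Hochberg adjusted p = 0.0142). Its flow-through change was -0.25 and its labelled change 0.28, and the difference had the same sign in each setting with a column left out, with 1 of the 4 past the threshold. VLDLR differed the other way (difference 0.63, SE 0.10, adjusted p = 0.00615), with changes of 0.84 in flow-through and 0.21 in labelled RNA, and 3 of the 4 settings passed. The 2 fractions of a replicate come from the same RNA.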

How the results depend on the processing

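Over all genes the main counts of calls were 1651 for total RNA, 1299 for labelled and 3551 for flow-through RNA, 373 in half-life, 630 for the difference between the fractions and 384 for total RNA against its fitted value. With an expression minimum of 20 the counts were 663 for total RNA, 572 for labelled and 1667 for flow-through RNA, 157 in half-life and 252 for the difference, with fewer genes tested, while total RNA against its fitted value gave 540. Without centring they were 1974 in labelled RNA, 7 in half-life and 1028 for the difference, which was 998 with a pseudocount of 5. With no minimum, total RNA against its fitted value gave 0 calls by limma, with 1950 genes at an unadjusted p under 0.05. With 1 column left out, counts were 856 to 1765 for total RNA, 826 to 1145 for labelled and 2602 to 3122 for flow-through RNA, 49 to 248 in half-life, 127 to 464 for the difference and 0 to 599 for total against fitted (0 without either mock column, with 1416 and 1791 genes at an unadjusted p under 0.05). A lone column left in a group is assumed to vary like the other group. The cause of the other shifts was not tested. Of the values of the 9 genes under all alternatives, 521 kept direction and call, 17 lost a call, 16 gained one and 34, with no call in either setting, changed sign or, in 1 case, came to 0, and 0 called values changed sign.

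The replicate numbers stand in the table header alone. Deviations of same-numbered siRNA and mock columns correlated at 0.05 in total RNA, -0.04 in the labelled fraction, 0.11 in the flow-through and -0.07 in half-life, over 2 pairs, so the numbers were not taken to pair columns. With the replicate block, half-life calls were 139 and calls for total against fitted 755. Under it the labelled changes of ATF4 (adjusted p = 0.0108) and PPP1R15A (0.00782) and the total and flow-through changes of CHAC1 (0.0112 and 0.0181) passed, and 0 of the calls of the 9 genes were lost. The depth of the libraries is unknown, and so is the smallest change they could show.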

Other observations

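Among the leucine zipper partners of ATF4, CEBPB and JUND, named here after their values were seen, stood opposite to DDIT3. CEBPB, which encodes a C/EBP factor that pairs with ATF4 and DDIT3, had a labelled signal of 70.8 and 59.3 in siRNA cells, against 109 and 110 in mock cells (change -0.88, SE 0.10, limma test, Benjamini-Hochberg adjusted p = 0.000382). Its flow-through signal was 13.56 and 15.04 in siRNA cells, against 33.30 and 28.98 in mock cells (change -1.05, SE 0.08, adjusted p = 0.000301). Its total RNA was at 30.1 and 28.9 in siRNA cells and at 31.2 and 29 in mock cells (change -0.01, adjusted p = 0.958). JUND, a JUN family factor, was at 55.8 and 46.3 in labelled RNA of siRNA cells, against 112 and 116 in mock cells (change -1.29, SE 0.10, adjusted p = 4.21e-05), and its flow-through change was -1.55 (adjusted p = 9.67e-05), while its total change was -0.35 (adjusted p = 0.00694; lost in 1 of the 4 settings with a column left out). Total RNA of CEBPB and JUND against the fitted value changed by 0.85 and 1.06 (adjusted p = 0.0372 for each), upward, where DDIT3, PPP1R15A and ATF3 changed downward. Each of these 2 calls held in 2 of the 4 settings with a column left out. With no expression minimum 0 genes were called in total RNA against its fitted value. In JUN, whose total, labelled and flow-through RNA all fell (-0.59, -0.55 and -1.36), the same quantity changed by 0.16 (adjusted p = 0.291).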
